A study of Homo sapiens with 6 samples.

Results

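A set of 10 genes of base excision repair and poly(ADP-ribose) polymerase (PARP) signalling was followed in U2OS cells with and without knockdown of E2F7. U2OS is an established human osteosarcoma line. The genes were chosen by their place in the pathway: UNG, SMUG1, OGG1 and NEIL3, which are DNA glycosylases, the nuclease APEX1, the polymerases PARP1 and PARP2, the scaffold XRCC1, the DNA polymerase POLB and the ligase LIG3. All 10 were listed at every time, among 11886 genes that were. Cells were transfected with siRNA against E2F7 (siE2F7) or with a non-target control (siNT). All of them had been held at the G1/S transition with 4 mM hydroxyurea for 24 h, then washed and put back in complete medium. RNA was taken at 0 h (G1/S), 3 h (S phase) and 12 h (G2/M boundary), with 1 library for each arm and time, 6 in all. U2OS is a single tumour line, and hydroxyurea, which depletes deoxynucleotides and stalls forks, was given to both arms, so no library shows cells that never met the drug. Values are the authors' deposited FPKM, sequenced fragments scaled by transcript length and by the number mapped in the library. They are per length, so levels of different genes can be set side by side.

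Base excision repair removes single damaged or wrong bases from DNA. A glycosylase cuts the base off, APEX1 nicks the strand at the empty site, POLB fills the gap and LIG3, held by XRCC1, seals it; where more than 1 base is replaced, the replication enzymes PCNA, FEN1 and LIG1 take part. PARP1 and PARP2 bind strand breaks and build poly(ADP-ribose) chains that draw XRCC1 to them. UNG, which takes uracil out of DNA, is best known at replication forks in S phase, and E2F7 is an atypical E2F factor that represses genes of the G1/S program.

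E2F factors act at promoters, so the bases before the starts of UNG, the gene of the 10 with the largest change, and of PARP1 are shown. UNG has a pair of starts 575 bases apart in RefSeq (GRCh38.p14). As background, the upstream start makes the mRNA of the nuclear enzyme and the downstream start that of the mitochondrial one. GENCODE 29 starts a transcript that codes for 313 residues at base 109097574, near the first. It starts one of 304 residues at base 109098118, near the second. Both GENCODE starts lie upstream of the RefSeq starts, and the printed UNG stretches end just before them. The stretches are UNG upstream at chr12:109097347-109097573, UNG downstream at chr12:109097922-109098117 and PARP1 at chr1:226408094-226408343, the last on the minus strand. They run 5′ to 3′ and stop before the first annotated start. Capitals mark whole matches, on either strand, to an E2F site (TTTCCCGC, TTTCGCGC, TTTGCCGC or TTTGGCGC), a CHR element of cell cycle genes (TTTGAA or TTCGAA) or a CCAAT box (CCAAT).
UNG upstream start: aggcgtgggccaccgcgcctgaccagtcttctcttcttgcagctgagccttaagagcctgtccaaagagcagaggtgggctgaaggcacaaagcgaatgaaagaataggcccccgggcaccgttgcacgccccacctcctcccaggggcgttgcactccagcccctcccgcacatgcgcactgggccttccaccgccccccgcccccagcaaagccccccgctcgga
UNG downstream start: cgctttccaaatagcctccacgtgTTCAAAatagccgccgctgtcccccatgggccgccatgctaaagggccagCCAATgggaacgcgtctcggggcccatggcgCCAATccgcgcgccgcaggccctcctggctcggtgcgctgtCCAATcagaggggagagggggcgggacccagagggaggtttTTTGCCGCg
PARP1: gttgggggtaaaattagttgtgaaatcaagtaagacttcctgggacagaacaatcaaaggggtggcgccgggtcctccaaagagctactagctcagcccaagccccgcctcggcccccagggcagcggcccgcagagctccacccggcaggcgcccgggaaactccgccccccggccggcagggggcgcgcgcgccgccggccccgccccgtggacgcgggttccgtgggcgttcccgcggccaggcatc

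In the window from 250 bases before to 50 after each RefSeq start, an E2F site was matched at 1 of the 9 windows of 8 genes, at the downstream start of UNG, where its first base lay 63 bases before the start. That window also held 3 CCAAT boxes and 1 CHR match on the opposite strand. The upstream start of UNG held 1 CCAAT match, which spans the start and is therefore not in the printed stretch. No motif was matched at PARP1 or LIG3. CCAAT boxes were also matched at 2 places in OGG1 and at 1 place each in NEIL3, APEX1 and XRCC1. Of all 35116 promoter windows in the table, 3.31% held an E2F site, 16.4% a CHR element and 34.6% a CCAAT box. CHR elements were also matched once each in NEIL3, PARP2 and XRCC1, with the first base 24, 3 and 67 bases before the start. The PARP2 match therefore spans its RefSeq start, and the bases printed after it lie past the start. The 30 bases around the matches are shown because CHR elements mark many genes of the later cell cycle. They lie at chr4:177309838-177309867, chr14:20343620-20343649 and, on the minus strand, chr19:43575577-43575606, with the match in capitals.
NEIL3: acgcgcgcgagaTTTGAAtttcctctgcgt
PARP2: atgacgtcagcgTTCGAAttccatggcggc
XRCC1: ggcgcgccggggTTTGAAaggcccgagcct

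A match describes letters, not a bound factor, and a window without one says only that these letters are not in it. The tables give 1 value per gene, so the RNA from the starts of UNG could not be told apart. SMUG1 and POLB had no sequence shown.

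**Figure D1:**
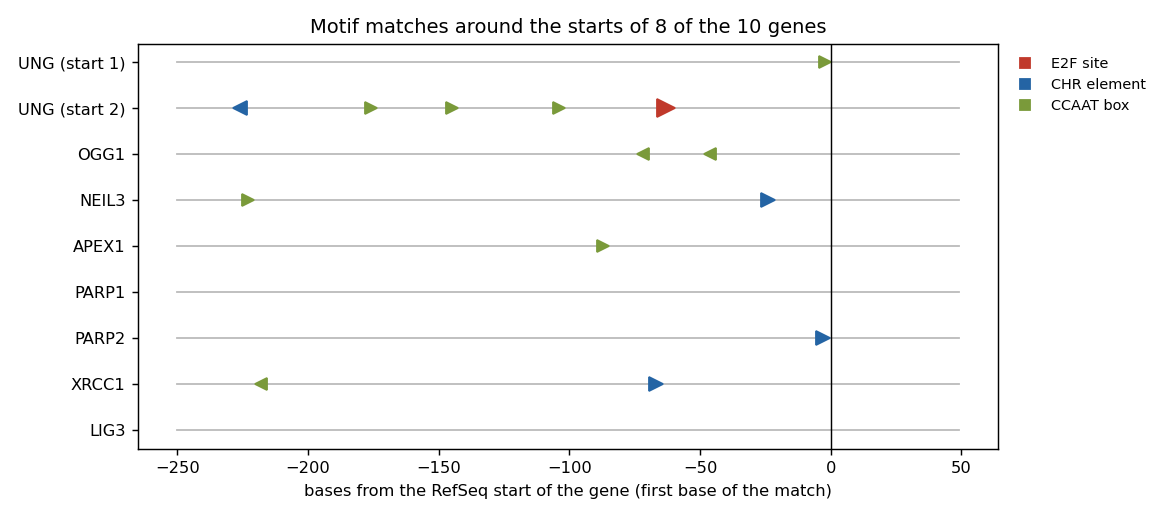
Motif matches around the RefSeq starts of 8 of the 10 genes, by distance in bases from the start (triangles point along the strand of the match). The 1 E2F match lies 63 bases before the downstream start of UNG, and the lines of PARP1 and LIG3 are empty.

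Of the 10 genes, 4 were higher in siE2F7 (UNG, PARP1, XRCC1 and PARP2), 1 was lower (POLB) and 5 did not pass the test (NEIL3, SMUG1, LIG3, OGG1 and APEX1). The test was a fit of log2(FPKM + 0.1) over all genes with time as a block (limma, Benjamini-Hochberg adjustment, threshold 0.05), and log2 changes and their errors below are on that scale. Over all 11886 genes the same fit called 13.9%, with 6.76% higher and 7.13% lower. Without the libraries of 3 h limma called 2 of the 10 higher (UNG and PARP1) and 0 lower, against 2.79% and 3.63% of all genes (332 higher where all times gave 803). Without those of 12 h it called 3 and 0, against 4.62% and 4.71% of all genes. Without those of 0 h it called 4 and 0, against 4.69% and 4.53% of all genes. At an unadjusted p under 0.05, 4 to 5 were higher and 1 to 2 lower in these fits. No share of all genes at that threshold is given here, so these last counts have no background to be read against. The median log2 change of the 10 was 0.18, against -0.03 for all genes tested. The genes were chosen with earlier results known, so the count describes them and supports nothing further. The ratio had 1 sign at all 3 times in 7 of the 10 and in 51.4% of all genes. In 2 of the 10, PARP1 and POLB, the 3 libraries of one arm all lay outside the range of the other arm, where 15.6% of all genes did so.

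**Figure D2:**
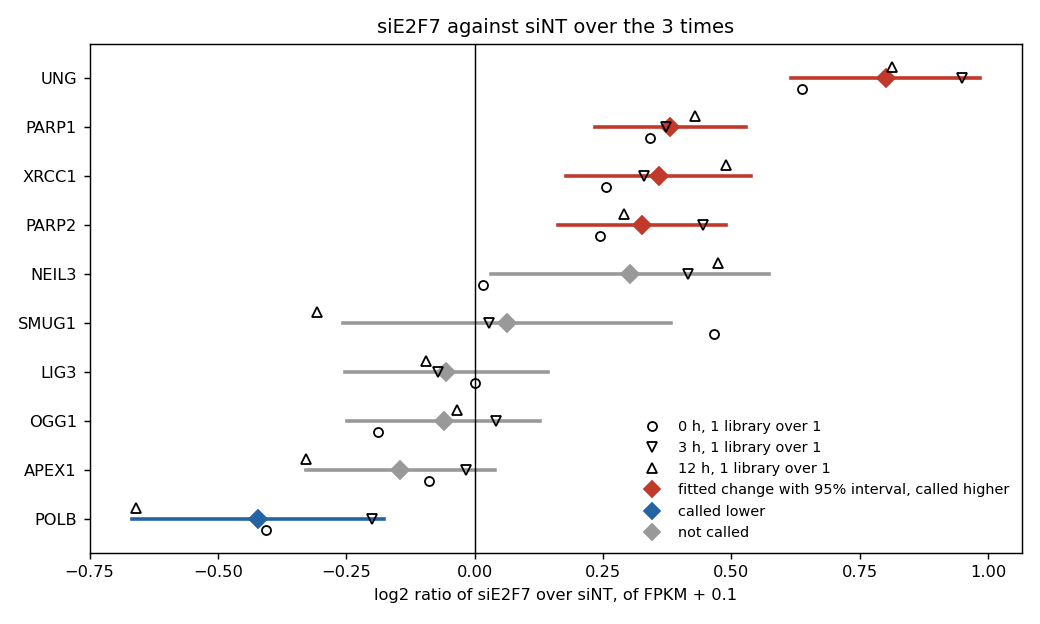
Log2 ratio of siE2F7 over siNT for the 10 genes, with the fitted change (diamond) and its 95% interval over 3 times, and the ratio at each time (open symbols, 1 library over 1). UNG stands apart at 0.80, POLB is lowest at -0.42, and the open symbols of SMUG1 lie on both sides of 0.

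The knockdown itself was present in every pair. E2F7 stood at 20.3, 29.4 and 16.6 FPKM in siNT at 0, 3 and 12 h and at 9.48, 10.6 and 5.52 FPKM in siE2F7. The 6 library sums lay between 351305 and 375954 FPKM and their medians between 10.07 and 10.61 FPKM. Sequencing depth is unknown without counts. Of 9 bone markers 7 were listed at every time, with summed levels of 691 to 946 FPKM, and COL1A2 and BGLAP were not listed at any time. Of 4 blood markers, PTPRC, CD3E and CD14 were not listed at any time either, and LAPTM5 was listed at 0.937 to 2.47 FPKM. PECAM1, VWF and CDH5 of endothelium, TERT and CDKN2A were not listed at any time. Of 5 epithelial markers, KRT19 was not listed at any time and CDH1 not at every time. Of the tested markers 2 of 7 of bone and 2 of 3 of epithelium were lower in siE2F7, the latter with sums of 239, 262 and 299 FPKM in siNT and 200.2, 222 and 202 FPKM in siE2F7. None of these 4 marker calls was kept by limma without the libraries of 0 h or without those of 12 h. Libraries also differed in cell cycle genes, and these values stand beside every change below: all 13 of 13 G1/S genes were called higher in siE2F7 (median log2 change 1.19), and their summed level was 739, 610 and 386 FPKM in siNT at 0, 3 and 12 h against 1338, 1349 and 1004 FPKM in siE2F7. Of 14 G2/M genes 2 were called higher and 0 lower (5 and 1 by limma at an unadjusted p under 0.05). Without the libraries of 0 h limma called 1 higher and 0 lower, without those of 3 h 2 and 0, and without those of 12 h 1 and 1. The sums of the 14 were 721, 772 and 1443 FPKM in siNT and 722, 859 and 1833 FPKM in siE2F7. The part of such a difference in the repair genes was not tested. In bulk RNA more cells of a phase and more RNA per cell cannot be told apart.

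The order of the genes by level was led by the nuclease and the main PARP. Median levels over the 6 libraries were 137 FPKM for APEX1, 95.2 for PARP1, 37.1 for PARP2, 33.2 for UNG, 18.3 for XRCC1, 13.7 for OGG1, 12.9 for SMUG1, 9.07 for POLB, 7.84 for LIG3 and 7.76 for NEIL3. APEX1 was first and PARP1 second in every library, and the lowest APEX1 value (122 FPKM) lay above the highest PARP1 value (109.9 FPKM). The lower neighbours overlapped: UNG ranged from 15.4 to 61.0 FPKM and PARP2 from 25.3 to 44.8 FPKM. Despite its higher median, PARP2 lay above UNG in 2 of 6 libraries, those of 12 h, and UNG lay above PARP2 at 0 and 3 h in both arms. OGG1 and SMUG1 overlapped too, as did POLB, LIG3 and NEIL3, so their order is within the spread over libraries.

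**Figure D3:**
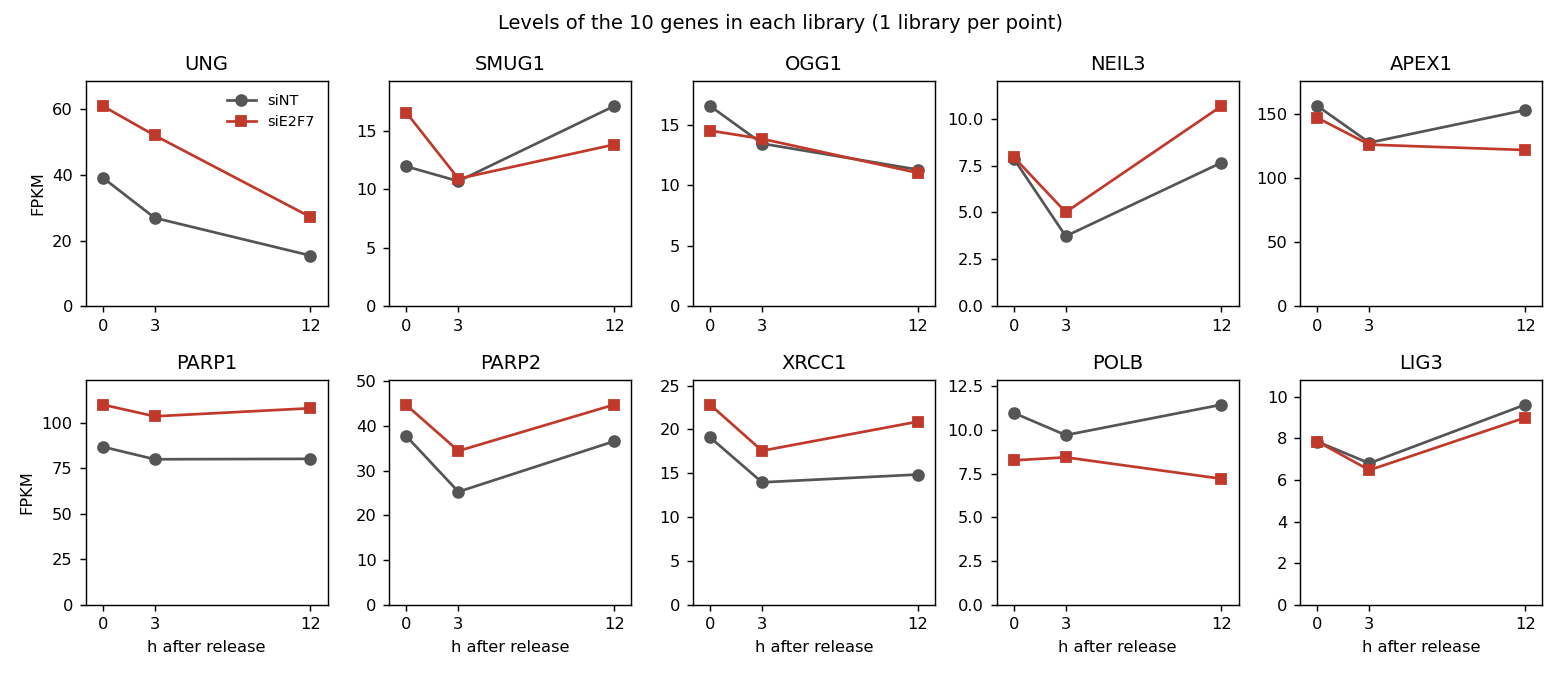
FPKM of each of the 10 genes in the 6 libraries, by hours after release (1 library per point, siNT grey circles, siE2F7 red squares, axes from 0). UNG falls over time in both arms with siE2F7 above, PARP1 lies in 2 separate bands, and POLB lies lower in siE2F7.

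Among the glycosylases, UNG rose. UNG (hg19, chromosome 12, 109535399 to 109548798) stood at 39.1, 26.9 and 15.4 FPKM in siNT at 0, 3 and 12 h and at 61.0, 52.0 and 27.2 FPKM in siE2F7. The siE2F7 library was the higher of its pair at every time, while the range of the arms overlapped because the level dropped over time in both. The log2 change was 0.80 ± 0.08 (SE over 3 times; limma, adjusted p = 0.00195), which is 1.74-fold with a 95% interval of 1.53 to 1.98. UNG was the only one of the 10 to lie at least 1.5-fold above siNT at any time, by 1.56-fold at 0 h, 1.93-fold at 3 h and 1.76-fold at 12 h, where 2.7%, 3.9% and 5.07% of all genes did so. These ratios lay at percentiles 97.8, 98.8 and 97.5 of all genes. Its call was kept when the libraries of any 1 time were left out.

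UNG also had the largest fall of the 10 between 0 and 12 h, in both arms. At 12 h it was at 39.4% of its 0 h level in siNT and at 44.5% in siE2F7, log2 differences of -1.34 and -1.16, which lay at percentiles 0.833 and 1.42 of all genes of each arm. At 3 h it was at 68.7% of the 0 h level in siNT and at 85.3% in siE2F7. The siE2F7 level at 12 h (27.2 FPKM) was close to the siNT level at 3 h (26.9 FPKM). Times were not tested against each other, since each arm had 1 library per time and nothing in the sources used here says that the tables of different times were scaled together.

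The other uracil glycosylase of the list, SMUG1, had no common direction over the times. SMUG1 (hg19, chromosome 12, 54574142 to 54582778) stood at 12.0, 10.7 and 17.1 FPKM in siNT and at 16.5, 10.9 and 13.8 FPKM in siE2F7 at 0, 3 and 12 h. It was higher with siE2F7 at 0 h, near equal at 3 h and lower at 12 h. SMUG1's log2 change was 0.06 ± 0.14 (SE; limma, adjusted p = 0.798), and the 95% interval of the fold, 0.837 to 1.30, does not reach the estimate of UNG. Within a library, where scaling cancels, there were 3.27, 2.51 and 0.900 FPKM of UNG for 1 of SMUG1 in siNT at 0, 3 and 12 h. The ratios were 3.69, 4.77 and 1.96 in siE2F7. UNG was therefore the more abundant of the pair in 5 of 6 libraries and the less abundant in siNT at 12 h.

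OGG1 and NEIL3 act on oxidised bases, OGG1 on 8-oxoguanine and NEIL3 on oxidised bases in single strands and on crosslinks at forks. OGG1 (hg19, chromosome 3, 9791628 to 9811668) stood at 16.6, 13.5 and 11.3 FPKM in siNT and at 14.5, 13.9 and 11.0 FPKM in siE2F7. The arms overlapped, with a log2 change of -0.06 ± 0.08 (limma, adjusted p = 0.659) and a 95% interval of 0.842 to 1.09 for the fold. Its locus overlaps that of CAMK1, so reads of the overlap may have been split. NEIL3 (hg19, chromosome 4, 178230991 to 178284092) stood at 7.86, 3.73 and 7.65 FPKM in siNT and at 7.95, 5.01 and 10.7 FPKM in siE2F7. The pair was level at 0 h and siE2F7 was 1.34-fold and 1.39-fold higher at 3 and 12 h. NEIL3 had a log2 change of 0.30 ± 0.12 (limma, adjusted p = 0.126); the 95% interval of the fold, unadjusted, was 1.02 to 1.49. NEIL3 was lowest at 3 h in both arms, at 47.5% of its 0 h level in siNT and 63.1% in siE2F7.

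APEX1, the nuclease that opens the strand at an empty site, was the most abundant of the 10 and did not pass. APEX1 (hg19, chromosome 14, 20923290 to 20925931) stood at 156, 128 and 153 FPKM in siNT and at 147, 126 and 122 FPKM in siE2F7. Each siE2F7 value was the lower of its pair, with the widest gap at 12 h, and the arms overlapped. The fit gave APEX1 a log2 change of -0.14 ± 0.08 (limma, adjusted p = 0.266), with a 95% interval of 0.796 to 1.03 for the fold.

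The break sensors PARP1 and PARP2 rose by like amounts. PARP1 (hg19, chromosome 1, 226548392 to 226595801) stood at 86.8, 80.0 and 80.2 FPKM in siNT and at 109.9, 104 and 108.0 FPKM in siE2F7 at 0, 3 and 12 h. The arms did not overlap, and within an arm the level moved little over time, with means of 82.3 ± 3.9 and 107 ± 3.3 FPKM (SD over the 3 times). For PARP1 the log2 change was 0.38 ± 0.06 (SE; limma, adjusted p = 0.00936), 1.30-fold with a 95% interval of 1.18 to 1.44, and the call was kept without the libraries of any 1 time.

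PARP2 (hg19, chromosome 14, 20811773 to 20826063), the second break-activated enzyme, stood at 37.7, 25.3 and 36.6 FPKM in siNT and at 44.6, 34.4 and 44.8 FPKM in siE2F7. The 3 h library was the lowest of each arm, at 67.1% and 77.1% of the 0 h level, and every siE2F7 value lay above the siNT value of its time, while the ranges of the arms overlapped. PARP2's log2 change was 0.33 ± 0.07 (SE; limma, adjusted p = 0.0244), 1.25-fold with a 95% interval of 1.12 to 1.40. Without the libraries of 3 h the call ended (limma, adjusted p = 0.112). The proportion of PARP1 to PARP2 was alike in the arms: PARP1 was 2.30, 3.16 and 2.19 times PARP2 in siNT and 2.46, 3.01 and 2.41 times in siE2F7. Between arms this proportion differed by factors of 1.07, 0.951 and 1.10, less than between times.

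XRCC1, the scaffold that PARP activity recruits, rose by an amount near that of PARP1. XRCC1 (hg19, chromosome 19, 44047464 to 44079730) stood at 19.1, 14.0 and 14.9 FPKM in siNT and at 22.8, 17.6 and 20.9 FPKM in siE2F7. Every siE2F7 value was above the siNT value of its time, and the ranges of the arms overlapped. XRCC1 had a log2 change of 0.36 ± 0.08 (SE; limma, adjusted p = 0.0244), 1.28-fold with a 95% interval of 1.13 to 1.45. The call ended without the libraries of 3 h (limma, adjusted p = 0.09) or 12 h (0.0812). The ratio of PARP1 to XRCC1 within a library was 4.55, 5.73 and 5.40 in siNT and 4.82, 5.90 and 5.17 in siE2F7, so that the arms differed by factors of 1.06, 1.03 and 0.958.

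Neither enzyme that XRCC1 holds was called higher. LIG3, the ligase that XRCC1 binds (hg19, chromosome 17, 33307517 to 33332088), stood at 7.84, 6.81 and 9.62 FPKM in siNT and at 7.85, 6.47 and 8.997 FPKM in siE2F7. The arms lay close together at each time, and their ranges overlapped. For LIG3 the log2 change was -0.06 ± 0.08 (limma, adjusted p = 0.704), with a 95% interval of 0.839 to 1.10 for the fold. XRCC1 was 2.43, 2.05 and 1.54 times LIG3 in siNT at 0, 3 and 12 h and 2.91, 2.71 and 2.32 times in siE2F7, a drop over time in both arms.

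POLB, which fills the single-base gap, was the only one of the 10 called lower. POLB (hg19, chromosome 8, 42195973 to 42229331) stood at 11.0, 9.71 and 11.5 FPKM in siNT and at 8.27, 8.44 and 7.21 FPKM in siE2F7. All siE2F7 values lay below all siNT values, and the gap was widest at 12 h. In the fit, POLB had a log2 change of -0.42 ± 0.11 (SE; limma, adjusted p = 0.0386), 0.746-fold with a 95% interval of 0.63 to 0.885. The call ended without the libraries of 0 h (limma, adjusted p = 0.103), 3 h (0.0509) or 12 h (0.123), so it needs all 3 pairs. At 12 h POLB was the only one of the 10 at least 1.5-fold below siNT, at 0.63-fold, where 6.58% of all genes were; at 0 h and 3 h 0 of the 10 were, against 4.4% and 3.9% of all genes. XRCC1 was 1.74, 1.44 and 1.30 times POLB in siNT and 2.76, 2.08 and 2.90 times in siE2F7.

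**Figure D4:**
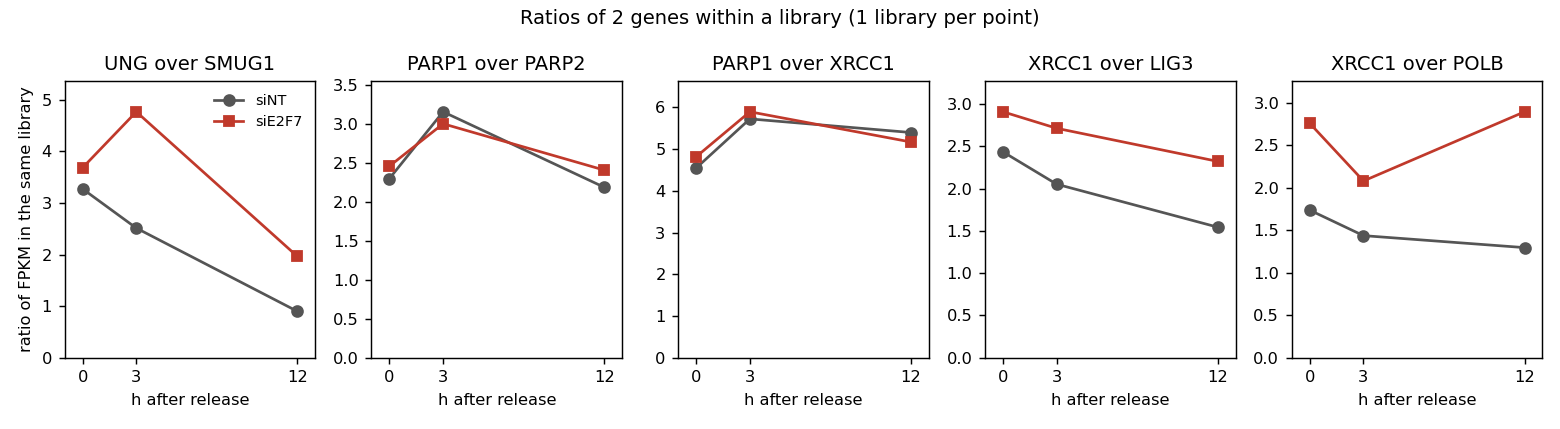
Ratio of the FPKM of 2 genes in the same library, by hours after release (1 library per point, siNT grey circles, siE2F7 red squares). PARP1 over XRCC1 lies near the same line in both arms, between 4.55 and 5.90, while XRCC1 over POLB is 1.30 to 1.74 in siNT and 2.08 to 2.90 in siE2F7.

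The rest of the pathway was read from a wider list of 43 genes ordered by step, of which 41 were tested and NEIL1 and APLF were not listed at all times. Of the 41, 17 were called higher and 1 lower (9 and 0 without the libraries of 3 h), and the median log2 change was 0.16. Of the 31 that are not among the 10 genes, 13 were called higher and 0 lower (15 and 4 by limma at an unadjusted p under 0.05). The calls lay unevenly over the steps. Of 16 genes of long-patch synthesis and ligation, which are replication enzymes, 12 were higher and 0 lower (13 and 1 by limma at an unadjusted p under 0.05), with a median of 0.44. Without the libraries of 3 h 7 of the 16 were called higher, as against 11 without 0 h and 9 without 12 h. Leaving these out, 5 of 25 were higher and 1 lower, with a median of -0.06, against 6.76% and 7.13% of all genes and a median of -0.03. The higher ones were UNG, XRCC1, PARP1, PARP2 and MBD4 and the lower one POLB. Of these, MBD4 alone is not among the 10 genes. The 10 genes and the lists were chosen with earlier results known, so these counts describe the 25 genes and support nothing further. The 5 and 1 of the 25 became 2 and 0 without 3 h, 3 and 0 without 12 h and 5 and 0 without 0 h. Of all genes, 2.79% were called higher and 3.63% lower without 3 h. The shares were 4.62% and 4.71% without 12 h, and 4.69% and 4.53% without 0 h. By step, 2 of 10 glycosylases, 0 of 2 AP endonucleases, 0 of 3 end-processing genes, 1 of 4 genes of short-patch synthesis and ligation and 2 of 6 genes of repair ADP-ribosylation were higher. At an unadjusted p under 0.05 limma had 0 AP endonucleases in either direction, and 1 end-processing gene higher and 2 lower.

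The highest of the called genes in the wider list were PCNA, the sliding clamp, UNG and RFC4, a subunit of the clamp loader. PCNA stood at 225, 161 and 122 FPKM in siNT and at 346, 388 and 325 FPKM in siE2F7 at 0, 3 and 12 h (log2 change 1.10 ± 0.14; limma, adjusted p = 0.00418). RFC4 had a log2 change of 0.72 ± 0.10, and both it and PCNA share a locus with another entry. The lowest of those called were POLB, FEN1, the flap nuclease of long-patch repair, at 0.29 ± 0.07, and MBD4, a glycosylase for thymine and uracil opposite guanine, at 0.30 ± 0.07. MBD4 stood at 13.7, 14.7 and 12.6 FPKM in siNT and at 17.0, 19.0 and 14.7 FPKM in siE2F7, with no overlap between the arms. The calls of FEN1 and MBD4 ended when the libraries of any 1 time were left out.

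**Figure D5:**
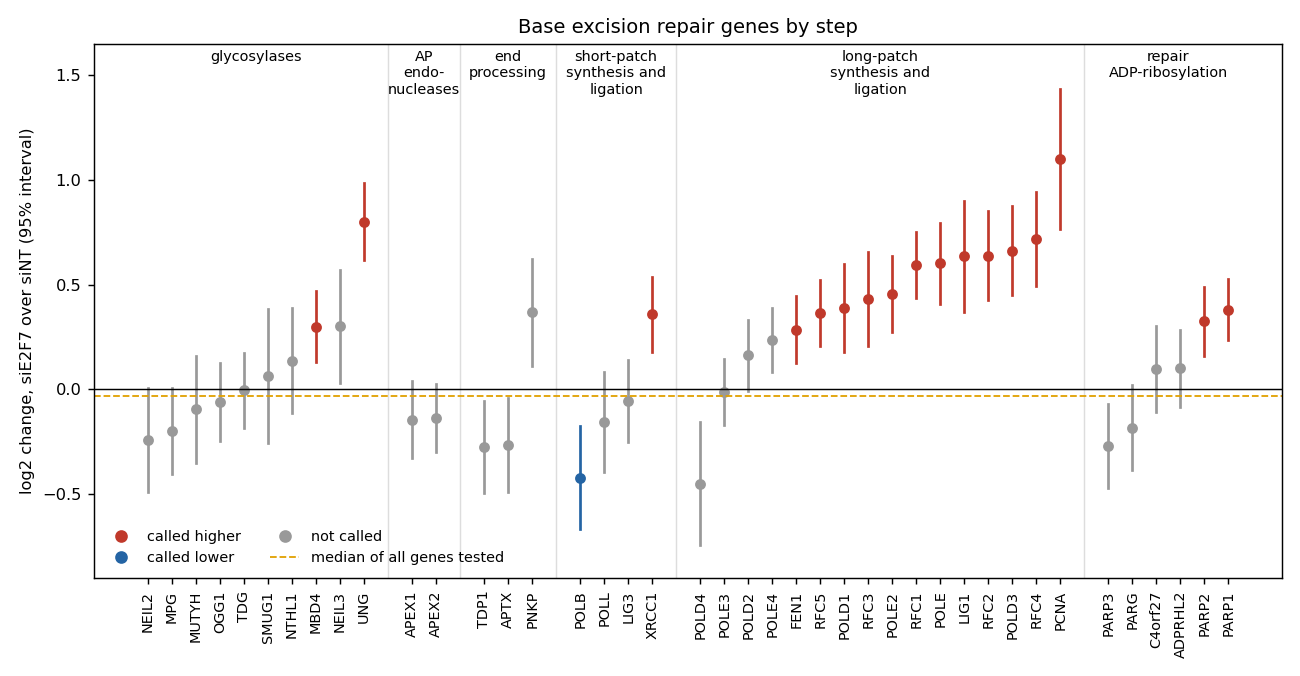
Log2 change of siE2F7 over siNT for the 41 tested genes of the wider list, by step, with 95% intervals over 3 times (red called higher, blue called lower, grey not called; dashed line, median of all genes tested). The 12 red points of long-patch synthesis and ligation stand beside 1 red and 1 blue point, XRCC1 and POLB, in the short-patch step.

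The enzymes that keep uracil out of DNA were higher in siE2F7 as well. DUT, which destroys dUTP, stood at 39.7, 32.5 and 19.2 FPKM in siNT and at 79.6, 85.5 and 76.5 FPKM in siE2F7 (log2 change 1.46 ± 0.16; limma, adjusted p = 0.00267). TYMS, which makes thymidylate from dUMP, stood at 157, 124 and 94.2 FPKM in siNT and at 192, 201 and 211 FPKM in siE2F7 (0.72 ± 0.15; limma, adjusted p = 0.0201), and it shares a locus with another entry. In siNT all of DUT, TYMS and UNG were lowest at 12 h. In siE2F7 UNG was again lowest at 12 h, while DUT stayed between 76.5 and 85.5 FPKM and TYMS between 192 and 211 FPKM. The call of TYMS ended without the libraries of 3 h (limma, adjusted p = 0.0656).

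Among the other PARP family genes, 1 of 13 tested was higher (7.69%) and 2 were lower (15.4%), with a median log2 change of -0.11. Over all genes the shares were 6.76% higher and 7.13% lower. PARP15 was not listed at all times. PARP16, an enzyme of the endoplasmic reticulum, stood at 4.45, 2.86 and 2.74 FPKM in siNT and at 6.71, 4.42 and 4.79 FPKM in siE2F7 (0.66 ± 0.12; limma, adjusted p = 0.0116). PARP6 and PARP10, which add single ADP-ribose units, had log2 changes of -0.35 ± 0.08 and -0.41 ± 0.11, and neither was called without the libraries of any 1 time.

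Genes with the most similar profile were sought for the 5 called members, as the smallest distance between log2 values centred on each gene's mean over the 6 libraries, among 11735 genes. They describe likeness over 6 libraries only. For UNG they were KIF26A, CAMK4 and FAM105A, at distances of 0.14, 0.24 and 0.26 with Pearson correlations of 0.996, 0.990 and 0.995. KIF26A stood at 2.70, 2.03 and 1.10 FPKM in siNT and at 4.85, 3.79 and 2.01 FPKM in siE2F7, a low level with the same fall over time. For PARP1 they were FANCA, of the Fanconi anaemia core complex, SENP1, a SUMO protease, and MFN2, a mitochondrial fusion protein, at distances of 0.06, 0.09 and 0.10. For XRCC1 they included FANCL, a Fanconi ubiquitin ligase, and KNTC1, a spindle checkpoint gene, at 0.13 and 0.14. For PARP2 they were TREX1, a DNA exonuclease, CLCC1 and AZI1, at 0.12, 0.16 and 0.16. For POLB they were RABAC1, GUK1, the guanylate kinase, and DYX1C1, at 0.10, 0.10 and 0.11. FANCA, FANCL, CLCC1 and DYX1C1 share a locus with another entry.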

How the data were processed

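RNA of 6 libraries of U2OS cells was sequenced. Per the labels' protocols, RNA was extracted with TRIzol, passed over RNeasy columns and turned into Illumina TruSeq libraries. The submitters' processing notes name CASAVA 1.8 and hg19 (GRCh37). The values are FPKM per gene, deposited by the authors; which aligner, annotation, strand setting or filter made them is not given in the sources used here. Depth is unknown, so no counting error is given. GENCODE 29 lists pseudogenes of UNG, SMUG1 and PARP1, and how their reads were assigned is not known.

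Tables were joined by identifier, and 11886 of 13161 genes were listed at all 3 times. Values were taken as log2(FPKM + 0.1) and fitted by limma 3.58.1 (R 4.3.3), with arm as the term, the 3 times as blocks, a variance trend and Benjamini-Hochberg adjustment over all genes (2 residual and 5.4 prior degrees of freedom). The fit was also run on simulated data with independent noise and known changes, which cannot show whether the times serve as replicates. The 3 times stand in for replicates, and nothing says that they came from separate cultures, so a p-value here reflects only how far the libraries of this series spread, time-dependent effects included. The log2 scale with a pseudocount understates the change of low genes. Intervals are 95% and unadjusted.

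The genes and lists were chosen with earlier results of these data known. The text names the 10 genes, E2F7, the called genes of each list (with over 6, the 3 highest and 3 lowest) and 3 nearest profiles per called gene (1 of them is not reported here); of the marker genes those not listed at every time, and LAPTM5, named after its values were seen. Nearest profiles needed a mean of 1 FPKM and no small RNA. Sequences are RefSeq's (GRCh38.p14) and were matched by symbol; a planned search of protein sequences was not run. Alternatives were other pseudocounts, a filter on low values, other scalings, no variance trend, no time block, other sets of genes, and leaving out each time.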

Additional observations from a re-analysis of the deposited data

Results flagged for a closer look

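SMUG1 was singled out because its ratio of siE2F7 over siNT lay past 0.2 on the log2 scale in opposite directions at different times, at 0.47 at 0 h and -0.31 at 12 h. In FPKM these were 12.0 against 16.5 at 0 h and 17.1 against 13.8 at 12 h, siNT first. The difference between the times was not tested, since each rests on 1 library per arm. It was the only 1 of the 10 genes to meet this condition, which 8.1% of all 11886 genes met.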

How the results depend on the processing

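The calls of UNG, PARP1, PARP2, XRCC1 and POLB were the same with a pseudocount of 0.01 or 1, a filter at a mean of 1 FPKM, median centring, quantile normalization, genes listed at any time, and without genes that share a locus. Quantile normalization made 2 of the wider list lower instead of 1, POLD4 being added. Without the variance trend 400 genes were higher and 452 lower over all, 2 of the 10 genes were higher (UNG and PARP1) and 0 lower, and 9 of the wider list were higher and 0 lower. With no time block 15 and 17 of all genes, 0 and 0 of the 10 and 0 and 0 of the wider list were called by limma, higher and lower, against 1 and 1 of the 10 and 13 and 2 of the wider list at an unadjusted p under 0.05; UNG then had an adjusted p of 0.56 (0.000374 to 0.56 over its alternatives). Leaving out the libraries of 1 time gave 332 to 557 higher and 431 to 560 lower over all genes, 2 to 4 higher and 0 lower among the 10, and 9 to 16 higher and 0 lower in the wider list; at an unadjusted p under 0.05, 4 to 5 of the 10 were higher and 1 to 2 lower. Such fits have 1 pair fewer. No share of all genes at an unadjusted p under 0.05 is given, so the unadjusted counts here and above have no background. Without 0 h SMUG1 turned to -0.14 and OGG1 to 0.0032, within ranges of -0.14 to 0.25 and -0.11 to 0.0032 over the left-out times, neither called; the cause was not tested. No paired analysis by replicate was possible because each group has 1 library; the time block pairs the arms. The depth is unknown, so the counting error of low values could not be given.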
